A study of Homo sapiens with 4 samples.

Results

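The genes described here are CD44, the main cell-surface receptor for hyaluronan, and 8 genes that make, bind or break down hyaluronan: HAS2, HAS3, HMMR, HYAL1, HYAL2, HYAL3, UGDH and CEMIP. They were taken by gene name from a table of 20329 genes, and all 9 have an entry there. Of the 9, 8 had a mean level of at least 1 FPKM (fragments scaled by the length of the gene model and by the mapped fragments of the library) and entered the tests, which covered 13928 genes. HYAL1 did not reach that level. The values are totals per gene, so the CD44 splice variants were not analysed here.

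The 4 libraries came from MDA-MB-231 BM1 (1833) and MDA-MB-231 LM2 (4175), which the labels call bone and lung metastasis derivatives of a human triple-negative breast cancer line. From each line there was 1 control library, of cells carrying a non-specific shRNA, and 1 knockdown library, of cells carrying an shRNA against hnRNPM, an RNA-binding splicing regulator. All 4 cultures had been infected with lentiviral vectors for stable shRNA expression and were grown in DMEM with 10% FBS. The title places the study in the joint control of splicing by hnRNPM and ESRP1 during epithelial-mesenchymal transition, for which CD44 is a well-studied splicing target. With 1 library per group, a difference within a line or within a treatment has no replicate check.

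Hyaluronan is a long, unsulfated sugar polymer of the extracellular matrix. HAS enzymes in the plasma membrane build it from UDP-glucuronic acid and UDP-N-acetylglucosamine and push it out of the cell. CD44 and HMMR, also called RHAMM, bind it, and hyaluronidases of the HYAL family together with CEMIP cut it or promote its breakdown. CD44 RNA is made in a standard form without variable exons, typical of mesenchymal cells, and in longer variant forms typical of epithelial cells.

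The step size of low FPKM values put the libraries at about 22810000 to 41500000 fragments, and in each line the knockdown library was the shallower (31290000 and 22810000 in BM1, 41500000 and 27260000 in LM2). Depth therefore moved with treatment, and its part in the differences was not tested. HNRNPM, the targeted gene, fell from 171 to 28.4 FPKM (BM1) and 132 to 20.3 FPKM (LM2) (limma, log2 change -2.59 ± 0.25 SE, adjusted p = 0.00318). All 6 markers of a mesenchymal-like breast cancer line were above 1 FPKM in each library. The same held for ERBB2 and GATA3, the 2 of 5 luminal breast markers with an entry. This level alone therefore does not set a mesenchymal-like line apart. Of the 6 markers, 2 had positive and 4 negative average changes with the knockdown, none of them called by limma. VIM was at 2354 (control) and 1160 FPKM (knockdown) in BM1, beside 1575 and 1795 FPKM for LM2. Of the 15 leukocyte, endothelial and fibroblast markers, 9 had an entry, and the other 6 were not analysed here. The endothelial markers summed to 0.541 to 1.55 FPKM, the fibroblast markers to 0.799 to 5.08 FPKM and the leukocyte markers with an entry, CD68 and CD14, to 5.93 to 25.1 FPKM. The fibroblast sum was higher in both knockdown libraries. CD68 was called lower with the knockdown (limma, log2 change -1.98, adjusted p = 0.00969) and carried the lower leukocyte sums, whereas CD14 in LM2 was at 1.97 FPKM in the control and 7.09 FPKM in the knockdown library. The 9 epithelial markers summed to 829 FPKM in control and 1573 FPKM in knockdown cells of BM1, beside 649 and 1444 FPKM for LM2, and most of the gain was KRT8 (398 and 1181 FPKM in BM1, 485 and 1083 FPKM in LM2). Of the 8 tested epithelial markers 5 had positive and 3 negative average changes, and limma called CDH1 and KRT8 higher. The negative values were -0.94 for CLDN7, -0.54 for CLDN4 and -0.32 for KRT19, none of them called. CDH1 was at 0.489 (control) and 4.076 FPKM (knockdown) in BM1, beside 0.17 and 2.297 FPKM for LM2. Both control values were below 1 FPKM, so CDH1 reached the mean level for testing only through the knockdown libraries. A gene this low in the controls could enter the test only by rising, which limits what the CDH1 call shows. The part of these markers in the results below was not tested.

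The DNA just before the start of 4 of the genes is shown. CD44 had a change near 0 with the knockdown, UGDH and CEMIP had different changes in the 2 lines, and HMMR is a gene of the cell cycle. RefSeq promoters (GRCh38.p14) were read for 8 of the 9 genes. The promoter of HAS2, the only member called with the knockdown, was not analysed here. The 250 bases before the start are printed 5′ to 3′ on the gene's strand. Capitals mark matches on either strand to 5 motifs: the TATA box TATAAA, the AP-1 motif TGANTCA, the CCAAT box CCAAT, the cell-cycle homology region TTTGAA and the GC box GGGCGG.
CD44, chr11:35138921-35139170, plus strand: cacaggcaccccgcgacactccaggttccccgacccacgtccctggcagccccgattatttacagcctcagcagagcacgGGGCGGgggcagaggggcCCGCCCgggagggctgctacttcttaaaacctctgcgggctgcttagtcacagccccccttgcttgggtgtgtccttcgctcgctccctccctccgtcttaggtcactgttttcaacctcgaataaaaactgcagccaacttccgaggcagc
UGDH, chr4:39527440-39527689, minus strand: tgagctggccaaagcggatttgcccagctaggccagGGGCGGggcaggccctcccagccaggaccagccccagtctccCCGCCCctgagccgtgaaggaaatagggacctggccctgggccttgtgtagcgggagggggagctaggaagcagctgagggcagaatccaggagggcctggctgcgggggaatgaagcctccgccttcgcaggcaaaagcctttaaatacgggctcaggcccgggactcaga
CEMIP, chr15:80779120-80779369, plus strand: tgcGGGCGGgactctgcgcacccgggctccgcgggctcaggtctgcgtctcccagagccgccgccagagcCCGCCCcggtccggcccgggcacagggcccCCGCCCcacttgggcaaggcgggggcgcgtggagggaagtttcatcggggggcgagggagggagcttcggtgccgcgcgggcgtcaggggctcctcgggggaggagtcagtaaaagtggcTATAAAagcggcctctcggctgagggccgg
HMMR, chr5:163460382-163460631, plus strand: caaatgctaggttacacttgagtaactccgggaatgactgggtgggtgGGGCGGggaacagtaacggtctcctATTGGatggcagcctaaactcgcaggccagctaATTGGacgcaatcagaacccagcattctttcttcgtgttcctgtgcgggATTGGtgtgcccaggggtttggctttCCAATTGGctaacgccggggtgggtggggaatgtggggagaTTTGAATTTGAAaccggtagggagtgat
The HMMR window held 5 CCAAT matches, of which 2 overlap each other, 2 adjoining TTTGAA matches that begin 28 and 22 bases before the start, and 1 GC box. CEMIP held a TATA box that begins 30 bases before the start and 3 GC boxes, while CD44 and UGDH held 2 GC boxes each and none of the other motifs. Among 35116 promoter windows of the same length, 32.0% held CCAAT, 13.3% TTTGAA, 42.6% the GC box, 10.7% TATAAA and 6.6% the AP-1 motif. These are matches of letters and not measured binding sites.

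CD44 was by far the most abundant of the 9 genes in every library. Its level was 155 FPKM in control and 157 FPKM in knockdown cells of BM1, and 223 and 217 FPKM, respectively, in LM2. It made up 73.6% to 79.5% of the summed FPKM of the 9 genes and stood above at least 97.7% of all genes in the table. By the mean over the 4 libraries HYAL2, HAS3 and UGDH came next, at 14.8, 13.4 and 11.4 FPKM, followed by HAS2 (6.89), HMMR (4.26), CEMIP (3.81) and HYAL3 (2.26). The order differed between libraries: HAS2 was second in the LM2 control, at 15.4 FPKM, and UGDH was second in the BM1 knockdown, at 19.8 FPKM. HYAL1 was lowest in every library, at 0.0381 to 0.174 FPKM. With 1 library per group the order could not be tested.

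**Figure D1:**
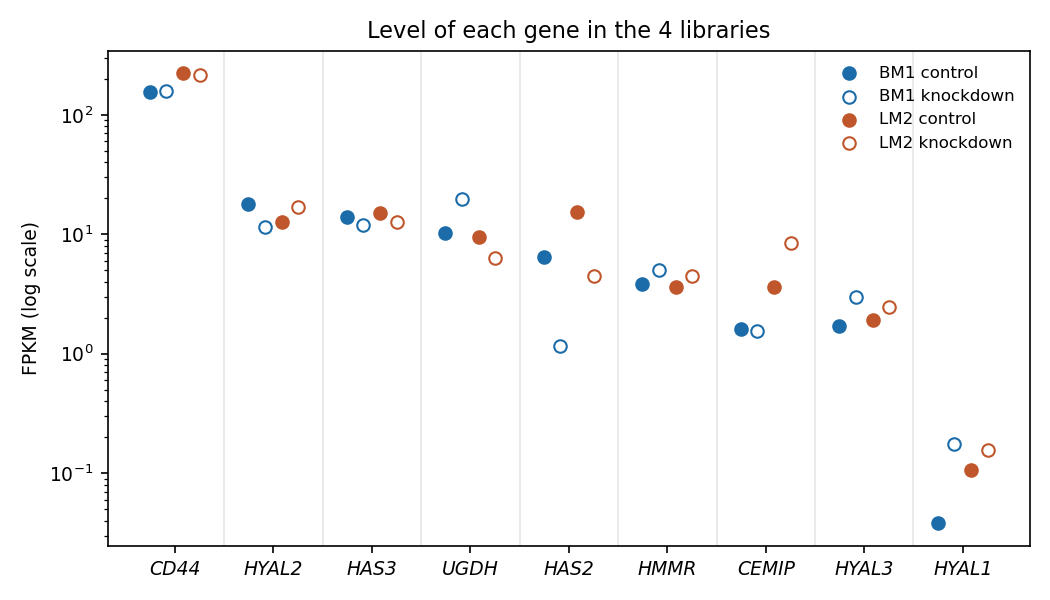
Level of each of the 9 genes in FPKM (log axis), ordered by mean, with 1 point per library: filled points are controls, open points knockdowns, blue BM1 and orange LM2. CD44 stands at 155 to 223 FPKM in all 4 libraries, while HAS2 spans 1.16 to 15.4 FPKM and HYAL1 stays below 0.2 FPKM.

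Within the lines, the knockdown and control libraries were compared on log2(FPKM + 1), a scale that understates the change of low genes, and at least 2-fold was used as a fixed rule with no test. In BM1 1 of the 8 members passed it, HAS2, which was lower, where 16.3% of all tested genes passed. In LM2 2 members passed, HAS2 lower and CEMIP higher, where 8.06% of all tested genes passed. Over both lines, limma with a term for the line called 1 of the 8 at an adjusted p under 0.05, again HAS2, against 5.47% of all tested genes. The median change of the 8 members over both lines was 0.09 on the log2 scale, and that of all tested genes was -0.01. At an unadjusted p under 0.05, 1 of the 8 members and 3465 of the 13928 tested genes (24.9%) passed. With 1 residual degree of freedom, this fit can call hardly any gene whose change differs between the lines. No gene of the table was called with the knockdown after quantile normalization, without the filter, without the term for line or without any 1 of the 4 libraries, and this limit applies to each knockdown call given below.

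The lines were compared in the same way. Between the controls, 1 member passed the 2-fold rule (HAS2, higher in LM2), where 12.2% of tested genes passed. Between the knockdown libraries 3 passed, HAS2 and CEMIP higher and UGDH lower in LM2, where 9.04% of tested genes passed. Over both treatments limma called 2 of the 8 members, HAS2 and CEMIP, both higher in LM2, against 4.35% of all tested genes. At an unadjusted p under 0.05, 3 of the 8 members and 3114 of the 13928 tested genes (22.4%) passed. The knockdown contrasts and the line contrasts use the same 4 libraries, so they are not separate evidence. The 606 line calls became 0 without the filter, 216 with a pseudocount of 0.1, 104 with quantile normalization, 11 without the term for treatment and 6 to 28 without 1 library. None of the line calls named below was kept under any of these settings.

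**Figure D2:**
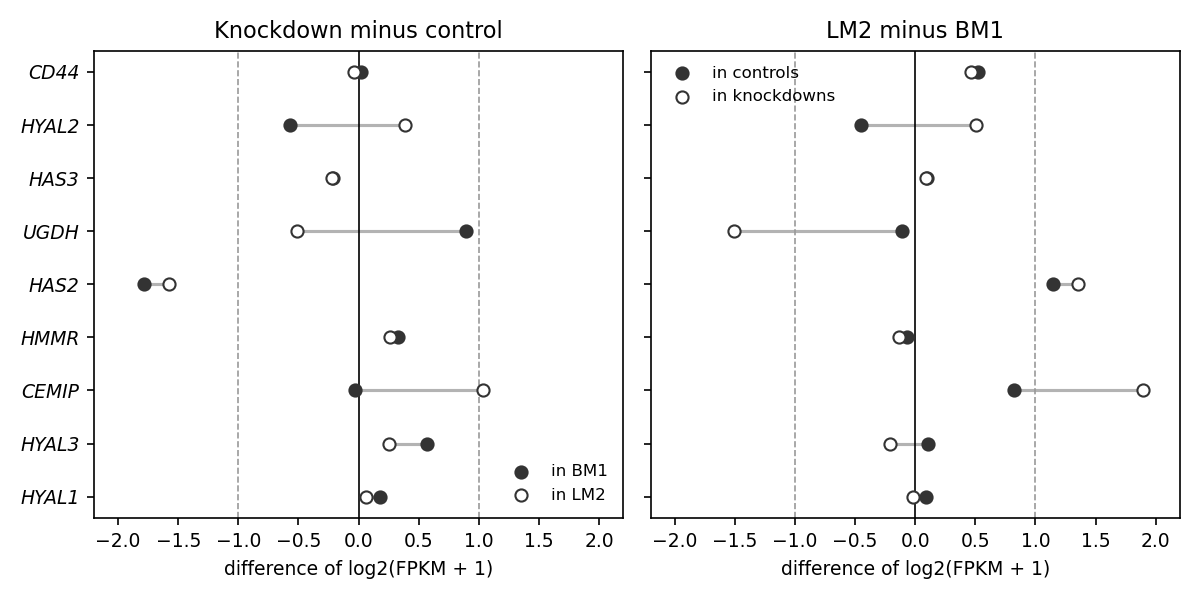
Differences of log2(FPKM + 1) for the 9 genes, from 1 library against 1: knockdown minus control in BM1 (filled) and LM2 (open) on the left, LM2 minus BM1 in controls (filled) and knockdowns (open) on the right, with dashed lines at 2-fold. HAS2 lies beyond the left dashed line in both lines, while UGDH and HYAL2 lie on opposite sides of 0.

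The synthases were taken first. HAS2 (ENSG00000170961.6, chromosome 8, 122624356 to 122653630, minus strand, GRCh37) encodes the synthase best known for long hyaluronan chains in mesenchymal and invasive cells. It was at 6.44 FPKM in control and 1.16 FPKM in knockdown cells of BM1, and at 15.4 and 4.51 FPKM, respectively, in LM2. Both knockdown values lay below both control values, and within each treatment the LM2 library was the higher. HAS2 kept 18.0% of its control level in BM1 and 29.2% in LM2, which are 5.57-fold and 3.42-fold lower levels. On the log2(FPKM + 1) scale HAS2 fell by 1.68 ± 0.25 (SE) over both lines (limma, adjusted p = 0.0129), lower in 2 of 2 lines. Of the 13928 tested genes, 129 had a larger drop in BM1 and 139 in LM2.

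The level of HAS2 was 1.25 ± 0.25 higher in LM2 on the same scale (limma, adjusted p = 0.0323), from a 2.40-fold ratio of FPKM between controls and a 3.90-fold ratio between knockdowns. Both calls depended on the settings. The knockdown call was lost with a pseudocount of 0.1 (adjusted p = 0.0745), with quantile normalization (0.0691), without the filter (0.220), without the term for line (0.400) and when any of the 4 libraries was left out. Over all alternatives the adjusted p of the limma fit ran from 0.0152 to 0.83, while the change stayed negative, between -2.358 and -1.004 (the latter without the BM1 knockdown library). The line call was lost under the same settings, with adjusted p-values over all alternatives from 0.0344 to 1.0 and differences from 0.355 to 2.142. The lowest of these came without the BM1 knockdown library and the highest without the BM1 control.

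HAS2-AS1, an antisense gene on the plus strand that shares 2098 bases with HAS2, moved in parallel. Its level was 1.98 FPKM in control and 0.341 FPKM in knockdown cells of BM1, beside 4.76 and 0.619 FPKM for LM2 (limma, log2 change -1.49, adjusted p = 0.0230). Both knockdown values were below 1 FPKM, so HAS2-AS1 passed the filter only through the control libraries. Per the labels the libraries are stranded, but no source used here says whether counting used the strand, so reads of HAS2 and HAS2-AS1 cannot be told apart with certainty.

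HAS3 (ENSG00000103044.10, chromosome 16, 69139467 to 69152622, plus strand, GRCh37) encodes a synthase of shorter chains. It was at 13.9 FPKM in control and 11.9 FPKM in knockdown cells of BM1, beside 15.0 and 12.7 FPKM for LM2. Its log2 change over both lines was -0.22 (95% interval -0.79 to 0.35, limma adjusted p = 0.628), nearly the same in each line (-0.21 and -0.22). Both values are small beside those of HAS2, whose interval for the same contrast was -2.26 to -1.11. The mix of the 2 synthases differed between libraries. On the FPKM scale, HAS2 made up 31.6% of the HAS2 and HAS3 total in control and 8.89% in knockdown cells of BM1, and 50.7% and 26.2%, respectively, in LM2. The total itself was 20.4 and 13.0 FPKM in BM1 and 30.4 and 17.2 FPKM in LM2. HAS1, the third synthase gene, was not analysed here. HAS3 shares 710 bases at its end with CHTF8 on the opposite strand.

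**Figure D3:**
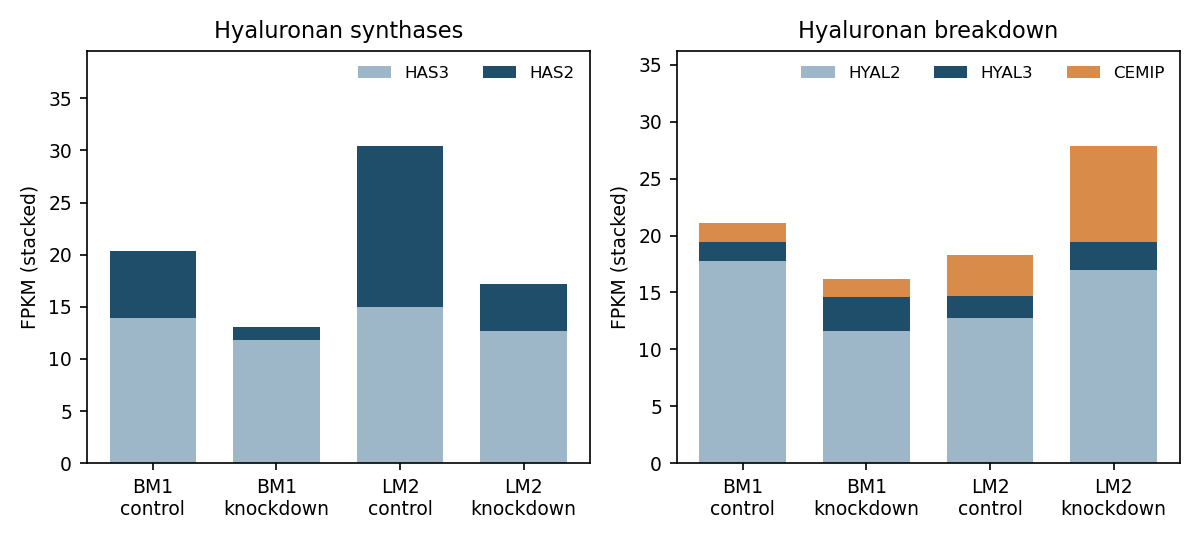
Stacked FPKM in each library, on axes from 0, for the synthases HAS3 and HAS2 (left) and for HYAL2, HYAL3 and CEMIP (right), with 1 library per bar and no error bars; HYAL1 is left out because of its low level. The HAS2 part of the bar shrinks from 6.44 to 1.16 FPKM (BM1) and 15.4 to 4.51 FPKM (LM2), and CEMIP adds 8.47 FPKM in the LM2 knockdown library against 1.55 to 3.62 FPKM in the other 3.

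UGDH (ENSG00000109814.11, chromosome 4, 39500375 to 39529931, minus strand, GRCh37) encodes UDP-glucose dehydrogenase, which makes the UDP-glucuronic acid that the synthases use. It was at 10.2 FPKM in control and 19.8 FPKM in knockdown cells of BM1, but at 9.43 and 6.30 FPKM, respectively, in LM2. The controls were thus close, and the knockdown libraries lay on either side of them, 3.14-fold apart. The log2 change was 0.89 in BM1 and -0.51 in LM2, and their average of 0.19 was not called (limma, 95% interval -0.60 to 0.97, adjusted p = 0.776). The difference between the lines was not tested, since each line has 1 library per treatment. Leaving out the BM1 knockdown library turned the average to -0.57, and no alternative brought it below the threshold.

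Of 8 genes that supply the 2 sugar nucleotides, UGDH included, none was called with the knockdown and 4 had positive and 4 negative average changes. By limma, 1 of the 8 had an unadjusted p under 0.05, beside 24.9% of all tested genes. The list median was 0.04 beside -0.01 for all tested genes. Between the lines 2 of the 8 were called by limma, both higher in LM2, where 4.35% of all tested genes were called. At an unadjusted p under 0.05, 4 of the 8 passed beside 22.4% of all tested genes. GFPT2, an entry enzyme of the hexosamine pathway, was at 22.2 (control) and 7.12 FPKM (knockdown) in BM1, beside 41.0 and 41.1 FPKM for LM2 (limma, log2 difference 1.61, adjusted p = 0.0437). Without the BM1 knockdown library the difference was 0.86, and the call was also lost with a pseudocount of 0.5 (adjusted p = 0.0643). UAP1, which makes UDP-N-acetylglucosamine, was at 36.4 (control) and 20.1 FPKM (knockdown) in BM1, beside 73.1 and 60.3 FPKM for LM2 (1.26, adjusted p = 0.0379, and 0.0576 with a pseudocount of 0.5). PGM3, another enzyme of that route, had the largest average knockdown change of the list after GFPT2, at 0.69 (adjusted p = 0.141).

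Among the receptors, CD44 (ENSG00000026508.16, chromosome 11, 35160417 to 35253949, plus strand, GRCh37) stood in knockdown cells at 101.3% of the control level in BM1 and 97.3% in LM2. Its log2 change over both lines was -0.01 ± 0.25 (SE), with a 95% interval of -0.58 to 0.56 (limma, adjusted p = 0.985). In LM2 its level was 1.44-fold the BM1 level between controls and 1.38-fold between knockdowns. The average difference of 0.49 on the log2 scale (interval -0.08 to 1.06) was not called (limma, adjusted p = 0.286). RP1-68D18.4, a gene on the minus strand inside the CD44 interval, was at 0.161 (control) and 1.68 FPKM (knockdown) in BM1, beside 0.545 and 1.86 FPKM for LM2, far below CD44.

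Among the 5 tested genes whose pattern over the 4 libraries was nearest to that of CD44, by the Euclidean distance of log2(FPKM + 1) values centred on each gene's mean, were AC002467.7, CACTIN-AS1, SURF2 and TANC1, at distances of 0.0377 to 0.0535. SURF2 was at 18.8 (control) and 18.9 FPKM (knockdown) in BM1, beside 27.0 and 27.6 FPKM for LM2. These 4 were nearly flat with the knockdown and somewhat higher in LM2. The ranking over 4 libraries was unsteady: 4 of the 5 stayed among the nearest with median-of-ratios scaling, 2 with a pseudocount of 0.1 and 0 with quantile normalization.

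HMMR (ENSG00000072571.19, chromosome 5, 162887209 to 162918951, plus strand, GRCh37) encodes a hyaluronan-binding protein that also sits on the mitotic spindle. It was at 3.84 FPKM in control and 5.07 FPKM in knockdown cells of BM1, beside 3.61 and 4.51 FPKM for LM2. Both knockdown values lay above both control values, by 1.32-fold in BM1 and 1.25-fold in LM2, and the change of 0.29 over both lines was not called (limma, 95% interval -0.28 to 0.86, adjusted p = 0.512). Of 10 genes listed as spindle partners of HMMR, BRCA1, BARD1 and DYNLL1 among them, none was called with the knockdown, by limma. At an unadjusted p under 0.05, 0 of 10 passed, beside 24.9% of all tested genes. Average changes were positive for 5 and negative for 5, with a median of -0.07. In LM2 all 10 were negative, with a median of -0.19 beside -0.04 for all tested genes. AURKA, a mitotic kinase, had log2 changes of -0.51 in BM1 and -0.55 in LM2, and PLK1, another mitotic kinase, of -0.44 and -0.56. Neither was called (limma, adjusted p = 0.233 and 0.257). KIF11, also of the list, had 1.02 in BM1 and -0.16 in LM2, and its average of 0.43 was not called (limma, adjusted p = 0.441). Of 22 proliferation genes 15 had negative average changes, with a median of -0.25, where 50.8% of all tested genes were negative. In that list limma called 1 higher (CENPE, 1.39) and 1 lower (TYMS, -1.13), where 5.47% of all tested genes were called. At an unadjusted p under 0.05, 10 of the 22 passed beside 24.9% of all tested genes. Without the BM1 control library the changes were 0.82 for CENPE and -0.70 for TYMS. The level of CD44 was 40.4 and 31.0 times that of HMMR in BM1 control and knockdown and 61.8 and 48.2 times in LM2, on the FPKM scale.

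The receptor list had 8 genes, of which 4 were tested and 1, LYVE1, was not analysed here. With the knockdown limma called 1 of the 4, where 5.47% of all tested genes were called. At an unadjusted p under 0.05, 1 of the 4 passed, beside 24.9% of all tested genes. TLR4, an innate immune receptor reported to respond to hyaluronan fragments, was called higher with the knockdown, at 7.55 (control) and 22.3 FPKM (knockdown) in BM1, beside 16.5 and 31.0 FPKM for LM2 (limma, log2 change 1.16, adjusted p = 0.0447). Without the BM1 control library its change was 0.64. LAYN, which encodes the membrane receptor layilin, was at 29.3 (control) and 24.8 FPKM (knockdown) in BM1, beside 20.4 and 63.9 FPKM for LM2 and was not called (0.69, adjusted p = 0.326). STAB1, STAB2 and TLR2 averaged less than 1 FPKM and were not tested. No receptor of the list was called between the lines by limma, and 1 of the 4 tested had an unadjusted p under 0.05, beside 22.4% of all tested genes.

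Breakdown genes differed in their patterns. HYAL2 (ENSG00000068001.13, chromosome 3, 50355221 to 50360337, minus strand, GRCh37), a hyaluronidase anchored to the cell surface, was at 17.8 FPKM in control and 11.6 FPKM in knockdown cells of BM1, beside 12.8 and 16.9 FPKM for LM2. The knockdown library was the lower in BM1 and the higher in LM2, with log2 changes of -0.57 and 0.38 and an average of -0.09 (limma, 95% interval -0.77 to 0.58, adjusted p = 0.873). HYAL2 shares 2880 bases with TUSC2 on the same strand, whose values were 17.9, 11.2, 16.6 and 10.0 FPKM in the same order of libraries, so TUSC2 was lower with the knockdown in both lines (-0.65, adjusted p = 0.153). Reads in the shared stretch could be assigned to either gene, and the values of both are uncertain.

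HYAL3 (ENSG00000186792.16, chromosome 3, 50330262 to 50336899, minus strand, GRCh37), a less studied member of the hyaluronidase family, was low, at 1.69 (control) and 2.99 FPKM (knockdown) in BM1, beside 1.91 and 2.46 FPKM for LM2. Both knockdown values exceeded both control values, and the average log2 change of 0.41 was not called (limma, 95% interval -0.17 to 0.99, adjusted p = 0.359). The HYAL3 interval contains all 3020 bases of NAT6 on the same strand. NAT6, which encodes an actin N-acetyltransferase, went the other way, from 7.04 to 2.58 FPKM (BM1) and 4.81 to 1.80 FPKM (LM2) (-1.11, adjusted p = 0.0417). No source used here says how the deposited values divide reads between these overlapping genes.

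HYAL1 (ENSG00000114378.16, chromosome 3, 50337320 to 50349812, minus strand, GRCh37), a lysosomal and secreted hyaluronidase, was at 0.0381 and 0.174 FPKM in control and knockdown cells of BM1 and at 0.106 and 0.157 FPKM, respectively, in those of LM2. For a gene model of 2 kb these levels stand for about 2.4, 8.0, 8.8 and 8.6 fragments, so no difference was detectable at this depth and no fold is given. HYAL2 carried 78.6% to 91.1% of the summed FPKM of the 3 HYAL genes.

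CEMIP (ENSG00000103888.15, chromosome 15, 81071684 to 81244117, plus strand, GRCh37) encodes a secreted protein needed for hyaluronan breakdown in several cell types. It was at 1.61 FPKM in control and 1.55 FPKM in knockdown cells of BM1, and at 3.62 and 8.47 FPKM, respectively, in LM2. The 2 BM1 values were alike, both LM2 values were higher, and the LM2 knockdown library stood highest. Between lines the FPKM ratio was 2.24-fold in controls and 5.45-fold in knockdowns. The average difference was 1.36 ± 0.31 (SE) on the log2(FPKM + 1) scale and was called, barely (limma, adjusted p = 0.0472). Among the alternatives, leaving out any 1 of the 4 libraries included, none kept that call, with adjusted p-values from 0.0523 to 1.0, and the difference stayed positive, between 0.84 (without the LM2 knockdown library) and 1.87.

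With the knockdown, the log2 change of CEMIP was -0.03 in BM1 and 1.04 in LM2, and the average of 0.50 was not called (limma, 95% interval -0.20 to 1.21, adjusted p = 0.351). In LM2 492 of the 13928 tested genes had a larger increase. Leaving out the LM2 knockdown library turned the average to -0.44. The difference between lines was not tested. CEMIP shares 5488 bases at its end with MESDC2 on the opposite strand, which was at 11.3 (control) and 16.3 FPKM (knockdown) in BM1, beside 21.7 and 22.1 FPKM for LM2.

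Of the 10 breakdown genes of the list 7 were tested, and none was called with the knockdown by limma. At an unadjusted p under 0.05, 2 of the 7 passed beside 24.9% of all tested genes. Average changes were positive for 5 and negative for 2 (list median 0.41, all tested genes -0.01), where 50.8% of all tested genes were negative. TMEM2, the older symbol of CEMIP2, a cell-surface protein related to CEMIP, was at 10.9 (control) and 27.4 FPKM (knockdown) in BM1, beside 29.3 and 48.0 FPKM for LM2. Its change with the knockdown was 0.97 (limma, adjusted p = 0.0714) and its difference between lines 1.07 (adjusted p = 0.0626). HEXA, a lysosomal hexosaminidase gene, had a change of 0.61 (adjusted p = 0.186). Between lines CEMIP was the only 1 of the 7 that limma called, where 4.35% of all tested genes were called. At an unadjusted p under 0.05, 2 of the 7 passed in that contrast, beside 22.4% of all tested genes.

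Beyond the pathway itself, 15 genes of the hyaluronan matrix were listed, of which 4 were tested and 11 were not analysed here. With the knockdown limma called 1 of the 4, where 5.47% of all tested genes were called. At an unadjusted p under 0.05, 2 of the 4 passed, beside 24.9% of all tested genes. ITIH3, a heavy chain that can be bound to hyaluronan, was called higher with the knockdown, from 0.0912 to 2.35 FPKM (BM1) and 0.156 to 2.61 FPKM (LM2) (limma, log2 change 1.63, adjusted p = 0.0137). Both control values were below 1 FPKM, so ITIH3 passed the filter only through the knockdown libraries. A gene this low in the controls could enter the test only by rising. ITIH4 was at 0.722 and 3.93 FPKM in BM1, beside 0.244 and 0.631 FPKM for LM2, and was not called (0.95, adjusted p = 0.112). PTX3, a pentraxin of hyaluronan-rich matrix, was at 98.2 (control) and 9.47 FPKM (knockdown) in BM1, beside 30.3 and 42.6 FPKM for LM2, and the average of -1.38 was not called (adjusted p = 0.248). Like UGDH and HYAL2, PTX3 took opposite directions in the 2 lines.

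Of 14 CD44 partners and sheddases 12 were tested. With the knockdown limma called 1 lower and 1 higher, where 5.47% of all tested genes were called, and the list median was 0.14. At an unadjusted p under 0.05, 8 of the 12 passed beside 24.9% of all tested genes. MMP14, a membrane-bound metalloproteinase that can cut CD44 from the surface, fell from 105 to 23.4 FPKM (BM1) and 92.7 to 19.5 FPKM (LM2) (-2.15, adjusted p = 0.00652). ADAM17, another CD44 sheddase, rose from 14.6 to 29.7 FPKM (BM1) and 9.36 to 24.5 FPKM (LM2) (1.14, adjusted p = 0.0413), and is named here after its values were seen. ADAM10 was at 4.69 (control) and 18.5 FPKM (knockdown) in BM1, beside 12.1 and 18.9 FPKM for LM2 without being called (1.19, adjusted p = 0.0674). SLC9A3R1, an adaptor of ezrin, was at 60.4 (control) and 8.43 FPKM (knockdown) in BM1, beside 20.5 and 16.5 FPKM for LM2 (-1.50, adjusted p = 0.104). Between lines, CD74, which can signal together with CD44, was called higher in LM2, at 23.2 (control) and 15.9 FPKM (knockdown) in BM1, beside 108 and 50.7 FPKM for LM2 (1.89, adjusted p = 0.00765). It was the only 1 of the 12 called in that contrast, where 4.35% of all tested genes were called. At an unadjusted p under 0.05, 2 of the 12 passed between lines, beside 22.4% of all tested genes.

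Of 13 regulators linked to CD44 splicing 12 were tested. HNRNPM itself was the only one called with the knockdown by limma, where 5.47% of all tested genes were called. At an unadjusted p under 0.05, only 1 of the 12 passed, HNRNPM, beside 24.9% of all tested genes. The other 11 had average changes between -0.50 and 0.16. Of the 12, HNRNPM included, 10 had negative and 2 positive average changes, where 50.8% of all tested genes were negative. The list median was -0.26, beside -0.01 for all tested genes. None of the 12 was called between the lines by limma (3 at an unadjusted p under 0.05, beside 22.4% of all tested genes). In that contrast 9 were lower and 3 higher in LM2, where 50.7% of all tested genes were negative. ESRP1, the epithelial splicing regulator of the study title, was at 0.288 FPKM in the BM1 control and at 0.0134 to 0.0242 FPKM in the other 3 libraries, below the filter. Its relative ESRP2 was at 1.47 (control) and 2.0 FPKM (knockdown) in BM1, beside 0.528 and 0.560 FPKM for LM2, and was called neither with the knockdown (limma, adjusted p = 0.748) nor between lines (0.105). Both LM2 values were below 1 FPKM, so ESRP2 passed the filter only through the BM1 libraries.

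**Figure D4:**
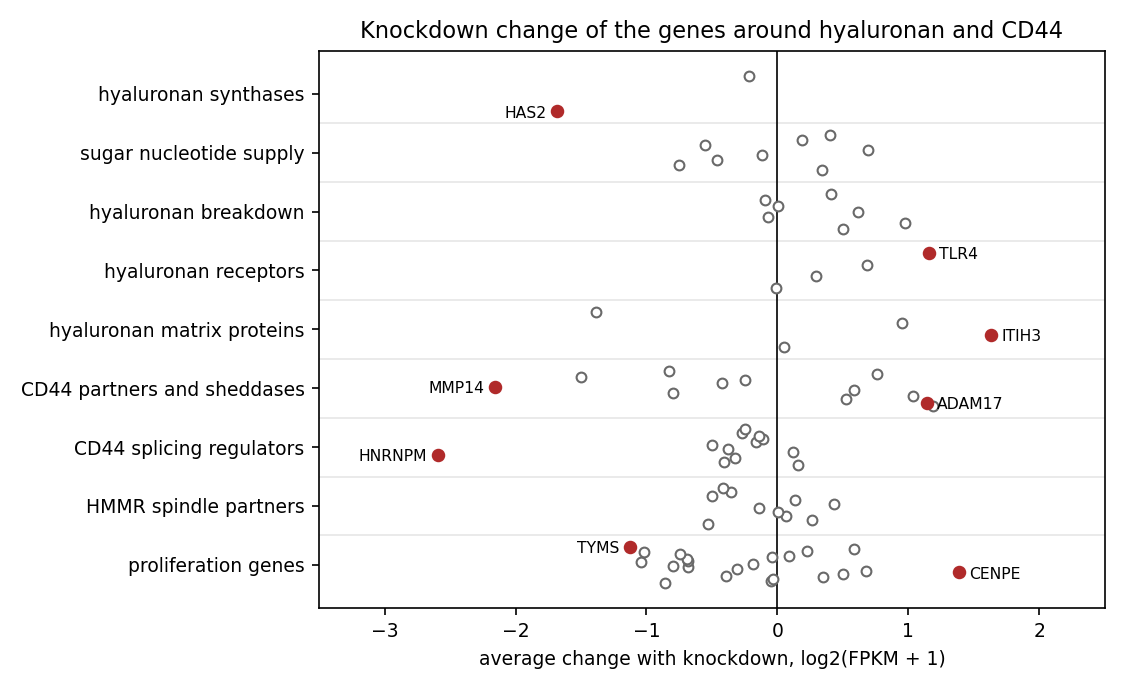
Average change with the knockdown over both lines on the log2(FPKM + 1) scale for each tested gene of the 9 pathway lists, in rows, with vertical position within a row only separating the points. Filled red points with names passed an adjusted p of 0.05 in limma, and open points did not. HAS2, MMP14, HNRNPM and TYMS are the called genes to the left of 0, and TLR4, ITIH3, ADAM17 and CENPE those to the right.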

How the data were processed

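Gene levels were measured by sequencing stranded, paired-end libraries of polyadenylated RNA in 4 cultures, 1 library per line and treatment. The authors deposited FPKM values per gene. STAR 2.5.3a, Cuffdiff 2.2.1 and GRCh37 are named in the submitters' processing notes, and for the annotation release and strand setting no source used here gives a value.

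Of 20369 table entries, 40 with repeated gene IDs were left out. Values were analysed as log2(FPKM + 1), and the 13928 genes averaging 1 FPKM or more were tested across all genes with limma 3.58.1 in R 4.3.3 (terms for line and treatment, no intensity trend, 1 residual degree of freedom, Benjamini-Hochberg adjustment, two-sided, threshold 0.05). The fit was also run on simulated data without differences between the lines, so that run does not test the calls made here. Libraries are paired by cell line: deviations from the arm means correlated within a line (r = 0.545 across genes). P-values reflect only the spread between these libraries, and whether it is technical is not stated. Limma moderates that spread, drawing each gene's own value towards a value shared across all tested genes. The SE and interval of a gene are therefore not its own spread alone, and CD44, HAS3 and HMMR all had an SE of 0.251. Depth came from steps of low FPKM values in 1623 genes with 1 transcript in GENCODE release 29, of which 36.1% to 43.8% of products of FPKM and length lay within 0.02 of a whole step, so no count test was run.

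The members and the 15 gene lists were chosen with earlier results of these data known. Named were the members, HNRNPM, ESRP1, ESRP2, genes overlapping members and the 5 genes nearest to CD44. Genes from among the 3 largest changes of each list in either contrast were named as well. Of the overlapping genes, IFRD2 (88 bases shared with HYAL3) and UGDH-AS1 (293 bases shared with UGDH) were not described above. ADAM17 and HYAL4 were named after their values were seen. A gene that the rule also selects is not reported here. Alternatives were pseudocounts of 0.1 and 0.5, no filter, quantile normalization, median-of-ratios scaling, no pairing, a 1.5-fold rule and leaving out each library.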

Additional observations from a re-analysis of the deposited data

Results flagged for a closer look

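Several genes had different changes in the 2 lines, each line being represented by 1 control and 1 knockdown library, and the difference was not tested for any of them. The LM2 change minus the BM1 change, on the log2(FPKM + 1) scale, was -1.40 for UGDH, 1.07 for CEMIP, 0.96 for HYAL2 and -0.06 for CD44. CD44 and CEMIP were close to 0 in at least 1 line, so only UGDH and HYAL2 moved visibly both ways. Of the 8 tested members 4 had opposite signs, beside 30.9% of all tested genes.

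Among the other named genes the same difference was 3.72 for PTX3, 1.84 for LAYN, 1.52 for GFPT2, -1.36 for NEDD1 and -1.18 for KIF11. GFPT2 (-1.51 in BM1, 0.004 in LM2) and KIF11 (1.02 and -0.16) changed mainly in BM1. NEDD1, a centrosome protein, and UGDH had much the same values, 0.81 and 0.89 in BM1 and -0.55 and -0.51 in LM2.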

How the results depend on the processing

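With 1 library per group, the calls rest on 1 residual degree of freedom and on a spread that limma shares across genes. The depth of 22810000 to 41500000 fragments leaves HYAL1 too low to compare. The 1 member called with the knockdown became 0 with a pseudocount of 0.1, no filter, quantile normalization, no pairing term and without any library (0 to 0). The 2 members called between lines became 1 with a pseudocount of 0.5 and with median-of-ratios scaling, 0 with a pseudocount of 0.1, no filter, quantile normalization and no pairing term, and 0 to 0 without any library. Over all genes, the 762 knockdown calls became 27 (pseudocount 0.1) and 0 (no filter, quantile normalization, no pairing term, any library left out), where limma gave 860 to 3735 genes at an unadjusted p under 0.05. The 606 line calls became 216 (pseudocount 0.1), 0 (no filter), 104 (quantile normalization), 11 (no pairing term) and 6 to 28 without 1 library. Fits with 3 libraries also drop the pairing and hold the lines or treatments in unequal numbers. Under the 1.5-fold rule 2 members passed in BM1 and 2 between controls, as did 2 between controls with a pseudocount of 0.1. The other 2-fold counts kept their size, and single-library contrasts have no leave-one-out value.

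Average changes close to 0 changed sign. Without 1 library, the knockdown change ran from -0.272 to 0.251 for CD44 (0.099 with quantile normalization), -0.349 to 0.159 for HYAL2, -0.567 to 0.942 for UGDH, -0.443 to 1.448 for CEMIP and -0.317 to 0.627 for ESRP2. The difference between lines ran from -0.017 to 0.207 for HAS3, -0.267 to 0.06 for HMMR, -0.258 to 0.316 for HYAL2 and -0.333 to 0.236 for HYAL3. The causes were not tested.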

Other observations

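HYAL4, a further member of the HYAL family that lay below the filter, was at 0.0465 FPKM in control and 0.391 FPKM in knockdown cells of BM1, beside 0.0501 and 0.418 FPKM for LM2. It was singled out after its values were seen, and at these levels few fragments stand behind each value. RRM2, a subunit of ribonucleotide reductase from the proliferation list, was the gene of that list called between the lines, lower in LM2 by -1.09 on the log2 scale (limma, adjusted p = 0.0496). No alternative kept that call (adjusted p = 0.0543 to 1.0), and without the LM2 knockdown library the difference was -0.526.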
